A study of Mus musculus with 8 samples.

Results

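The genes described here are the mouse semaphorins and their principal receptors, the plexins and neuropilins. They were found by their symbols in the count files, as a list of 31 names: 7 secreted class 3 semaphorins, 13 membrane-bound semaphorins, 9 plexins and 2 neuropilins. All 31 were among the 23284 symbols counted, and all 31 passed the filter on low counts that left 14696 genes to be tested.

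Semaphorins are guidance proteins that steer growing axons and migrating neurons, usually by repelling them. Class 3 semaphorins are secreted and most of them bind a neuropilin, which has no signalling domain of its own and passes the signal through a class A plexin, whereas the membrane-bound classes bind plexins directly. In the embryonic cortex this system is known for guiding callosal, corticofugal and thalamic axons, for orienting pyramidal neurons, for keeping migrating interneurons out of the striatum and for shaping blood vessels.

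RNA was measured in the dorsal cortex of C57BL/6 embryos at E15.5, with the meninges and ganglionic eminences dissected away. There were 4 libraries labelled WT and 4 labelled KO for the receptor tyrosine kinase gene ErbB4. ErbB4-/- mice are kept alive by a transgene that makes ErbB4 in the heart from the α-MHC promoter, and each line was bred as a homozygous colony. WT and KO embryos thus came from different matings, and genotype cannot be told apart from colony, dam or litter. Litters, and whether embryos were pooled, are not given in the sources used here, so the spread between libraries may be partly technical.

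The count files held from 28205703 reads in WT replicate 1 to 48871480 in KO replicate 1. Values are given as CPM, the count of a gene scaled to a common library size after normalization. Erbb4, on chromosome 1 at chr1:68078760-69154633 (gene positions here are those of mm9), was not lower in the KO-labelled libraries, with 8.99, 19.9, 25.3 and 19.2 CPM in the WT-labelled and 20.9, 24.6, 20.7 and 23.5 CPM in the KO-labelled libraries (log2 fold change 0.28, SE 0.23, adjusted p = 0.812 from edgeR's test), so every genotype below is that of the label. The female-specific transcript Xist was at 983 to 1687 CPM in WT replicates 1 to 3 and at 2.70 to 3.82 CPM in WT replicate 4 and all 4 KO libraries, and the Y-linked Ddx3y was at 0.257 to 0.495 CPM in the former and 76.4 to 80.9 CPM in the latter, so sex and genotype cannot be told apart beyond what WT replicate 4 allows. Cortical neuron markers were abundant in all libraries (8 of 8 tested, summed level 4806 to 5626 CPM in WT and 4964 to 5292 CPM in KO). Meningeal markers were scarce (6 of 8 tested, summed level 14.1 to 16.9 CPM in WT and 14.2 to 23.0 CPM in KO), and ganglionic eminence and interneuron markers were present (9 of 9 tested, summed level 475 to 645 CPM in WT and 465 to 657 CPM in KO).

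Most receptors were abundant, and the ligands spanned a wide range. Levels between genes were compared as CPM per kb of each gene's longest coding transcript, averaged over the 8 libraries. The highest were Plxna2 at 54.8 CPM per kb, Plxnb2 at 49.7 and Plxna3 at 37.0, followed by the membrane semaphorins Sema4g at 36.8 and Sema4c at 34.6. A group of 5 genes stood far below the others: Sema3e at 0.910 CPM per kb, Sema3g at 0.862, Sema3b at 0.426, Sema3d at 0.354 and Plxnb3 at 0.0749. Of the 30 pairs of neighbours in this order, 26 overlapped between their libraries. The 4 that did not were Plxnb2 above Plxna3, Sema4a above Sema3e, Sema3g above Sema3b and Sema3d above Plxnb3. The order depends in part on the length used. With the length of all annotated exons, Plxnb2 (44.1) came before Plxna2 (40.1), Sema3f (14.2) before Sema3c (13.0) and Sema3d (0.333) just before Sema3b (0.330 CPM per kb), and the same 5 genes stayed last. In bulk tissue, fewer cells of a type and less RNA per cell cannot be told apart.

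**Figure D1:**
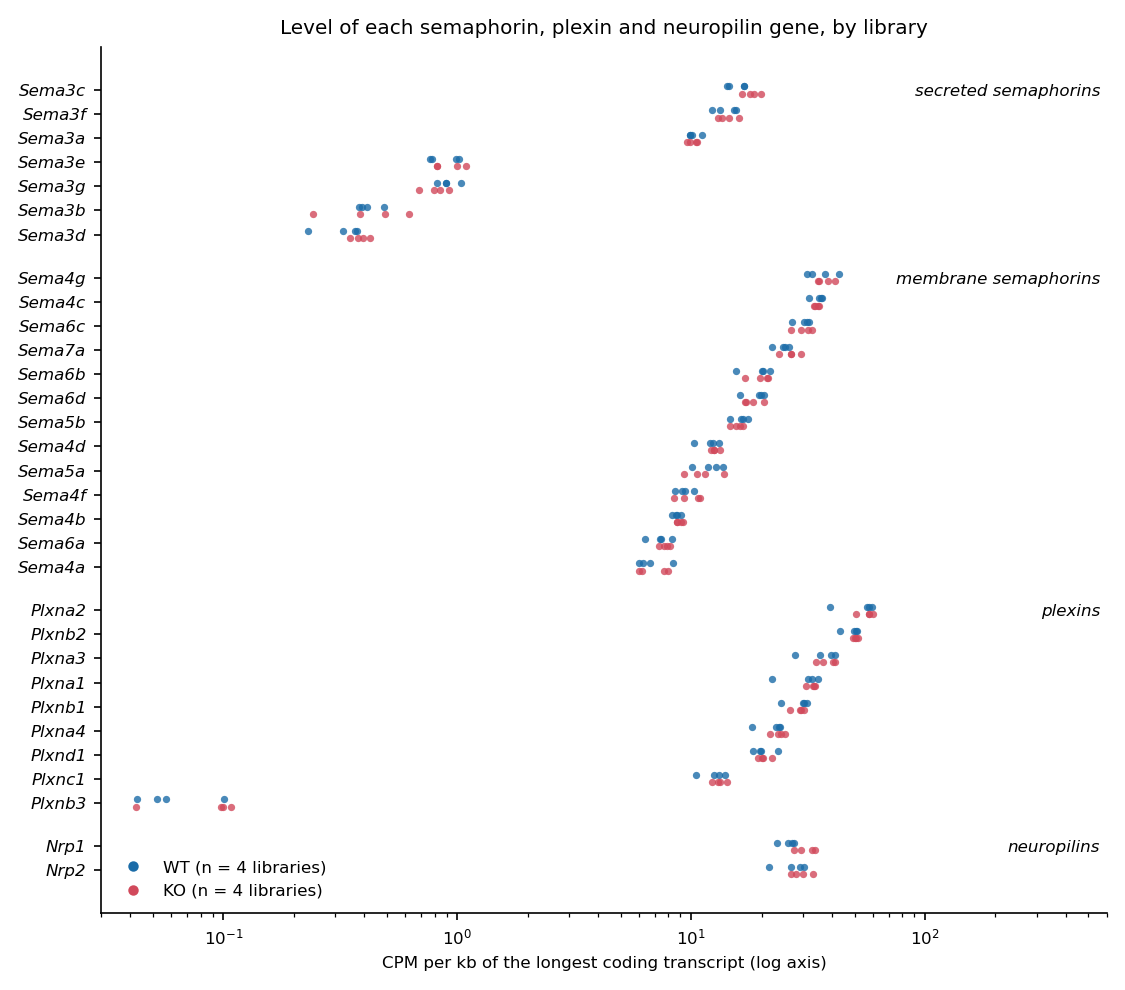
Level of each of the 31 genes in each library, as CPM per kb of the longest coding transcript on a log axis, with 4 WT libraries in blue and 4 KO libraries in red. Most plexins and both neuropilins lie to the right, apart from Plxnb3 at 0.0749 CPM per kb, and the secreted semaphorins fall into a high set of 3 genes and a low set of 4.

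Summed by structural class, the class A plexins, through which neuropilin-bound semaphorins signal, made up 24.5% of the members' level per kb and the class 4 semaphorins 18.2%. Class B plexins, the main receptors of class 4 semaphorins, followed at 13.2%, class 6 semaphorins, ligands of class A plexins, at 12.7%, and the neuropilins at 9.49%. All 7 secreted semaphorins together made up 7.34%. In every class the mean ± SD of the genotypes overlapped. Class A plexins summed to 142 ± 23.2 CPM per kb (SD, n = 4) in WT and 151 ± 5.90 (SD, n = 4) in KO libraries. Class 3 semaphorins summed to 42.5 ± 2.00 and 45.2 ± 2.15 CPM per kb.

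The comparison of KO with WT asks which genes change in the developing cortex when ErbB4 is lost. No semaphorin, plexin or neuropilin differed between the genotypes at an adjusted p under 0.05. Among all genes 4 did, 0.0272% of those tested, and the smallest adjusted p of any member was 0.810 (edgeR's quasi-likelihood test). At an unadjusted p under 0.05, Sema3c and Nrp1 were higher in KO-labelled libraries, 2 of 31 members (6.45%) beside 3.00% of all genes, and no member was lower, beside 2.52% of all genes. Nrp1 was also the only member with every KO library above every WT library, beside 1.86% of all genes, and no member had every KO library below every WT library, beside 1.48%. In DESeq2 the count of members called was likewise 0, beside 23 called among all genes. The same 2 members were higher at an unadjusted p under 0.05 in that fit, beside 2.89% of all genes.

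By sign alone, 24 of 31 members had a log2 fold change above 0, against 49.2% of all genes, with a median of 0.07 for the members and 0.00 for all genes. That count depended on the libraries and the fit. It was lowest without WT replicate 1, at 15 of 31, where the members' median was -0.00110. With another library left out it ranged from 19 (without KO replicate 2) to 26 (without WT replicate 4), and it was 19 after a trend with transcript length was taken out of every library, and 18 with Xist as a covariate. Between 47.7% and 50.5% of all genes were above 0 in these fits. Without WT replicate 1 the plexins moved most, from 8 of 9 above 0 with all libraries to 2 of 9, while the secreted semaphorins went from 5 to 4 of 7, the membrane semaphorins from 9 to 7 of 13, and both neuropilins were above 0 either way.

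**Figure D2:**
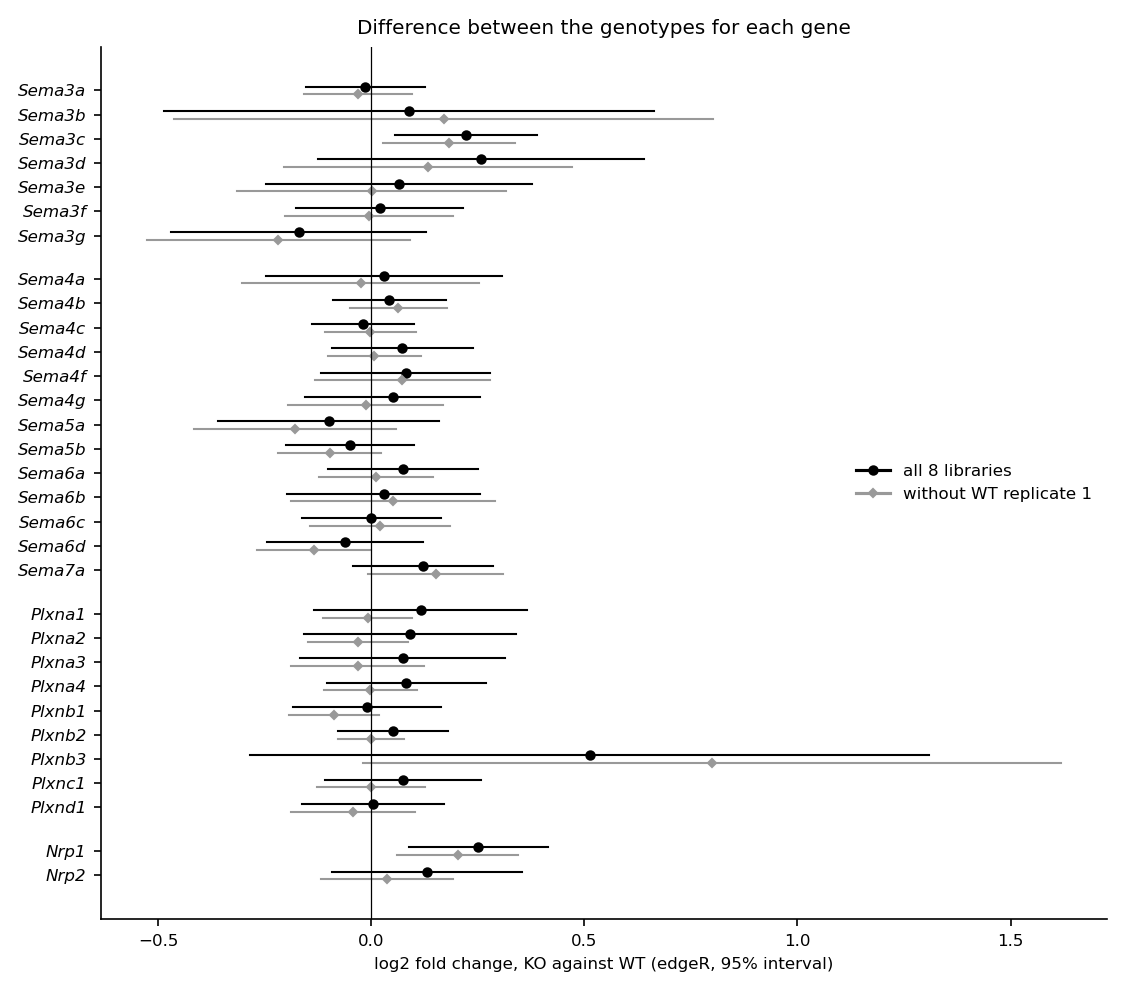
Log2 fold change of KO against WT for each of the 31 genes with its 95% interval from edgeR, with all 8 libraries (black circles) and without WT replicate 1 (grey diamonds). Only the intervals of Sema3c and Nrp1 lie above 0 in both fits, and most grey plexin points sit left of the black ones.

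Among the secreted ligands, Sema3c, Sema3f and Sema3a were well expressed and the other 4 were not. Sema3c, at chr5:17080099-17236086, attracts cortical axons at the corpus callosum and was the most abundant of the class per kb of coding transcript, though not per kb of all exons. It had 78.5, 79.9, 92.0 and 92.0 CPM in WT replicates 1 to 4 and 97.8, 102, 109 and 90.4 CPM in KO replicates 1 to 4. KO replicates 1 to 3 lay above all WT libraries, but KO replicate 4 lay within the WT range, so the groups overlapped. The means were 85.6 ± 7.41 and 99.9 ± 7.83 CPM (SD, n = 4), a fold of 1.17 (log2 fold change 0.22, SE 0.076, 95% interval 0.05 to 0.39). The unadjusted p was 0.0136 and the adjusted p 0.810 in edgeR's test, and the exact two-sided permutation test gave p = 0.0857.

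Sema3a, the classical repellent of cortical axons and an attractant of their dendrites, was at nearly the same level in both groups. It had 58.6, 58.9, 66.1 and 59.5 CPM in WT and 57.0, 58.7, 63.0 and 62.3 CPM in KO libraries, with WT replicate 3 the highest of the 8. Its log2 fold change was -0.01 (95% interval -0.15 to 0.13). Sema3f, which repels Nrp2-bearing axons and interneurons, ranged from 43.0 to 54.1 CPM in WT and from 45.5 to 55.8 CPM in KO libraries, with a log2 fold change of 0.02 (95% interval -0.18 to 0.22).

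The low secreted ligands gave wider errors. Sema3d, which with Sema3b was the lowest of the class per kb, had 1.50, 2.37, 2.11 and 2.42 CPM in WT and 2.76, 2.59, 2.28 and 2.45 CPM in KO libraries, from 42 to 136 reads. WT replicate 1 was the lowest, the groups overlapped, and the log2 fold change of 0.26 had a 95% interval of -0.13 to 0.64. Without WT replicate 1 the log2 fold change was 0.13 (95% interval -0.21 to 0.47). Sema3e, a ligand that binds Plxnd1 without a neuropilin, ranged from 5.21 to 6.91 CPM in WT and from 5.58 to 7.44 in KO libraries (log2 fold change 0.07). Sema3g ranged from 3.71 to 4.70 CPM in WT and from 3.13 to 4.20 CPM in KO libraries, and its log2 fold change of -0.17 (95% interval -0.47 to 0.13) was the lowest of all members. Sema3b, a tumour suppressor elsewhere in the body, was the most variable of the class, at 1.25 to 1.61 CPM in WT and 0.794 to 2.05 CPM in KO libraries.

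The secreted ligands are also clustered in the genome. Sema3d, Sema3a, Sema3e and Sema3c lie in that order on chromosome 5, separated by 0.537, 0.423 and 2.82 Mb, and yet their mean levels were 0.354, 10.2, 0.910 and 16.9 CPM per kb. High and low members thus alternate along the cluster. Sema3b and Sema3f lie 72.3 kb apart on chromosome 9 at 0.426 and 14.2 CPM per kb. In each cluster the libraries of the high and low genes did not overlap.

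The membrane semaphorins spanned log2 fold changes from -0.10 to 0.12, and the secreted class from -0.17 to 0.26. Sema4g, the highest per kb, had 142, 194, 150.2 and 171 CPM in WT and 175, 187, 159 and 160.1 CPM in KO libraries. The highest and the lowest value both belonged to WT libraries, and the log2 fold change was 0.05 (95% interval -0.15 to 0.25). Sema4a, the lowest per kb and best known from immune cells and retina, had 19.1, 26.8, 19.9 and 21.5 CPM in WT and 25.5, 24.6, 19.8 and 19.1 CPM in KO libraries. Its groups overlapped fully (log2 fold change 0.03).

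The other class 4 members were Sema4c and Sema4d, ligands of class B plexins, with Sema4b and Sema4f. Sema4c lay between 124 and 141 CPM over all 8 libraries, with a log2 fold change of -0.02 (95% interval -0.14 to 0.10). Sema4d was at 46.1 CPM in WT replicate 1 and between 54.1 and 59.3 CPM in the other 7 libraries (log2 fold change 0.07). Sema4b was the steadiest gene of the family, at 31.5 to 35.1 CPM with a coefficient of variation of 3.28%. Sema4f ranged from 34.7 to 44.7 CPM, with both extremes in KO libraries (log2 fold change 0.08).

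Class 5 semaphorins carry thrombospondin repeats, and both had log2 fold changes below 0. Sema5a ranged from 109 to 148 CPM in WT and from 100.5 to 149 CPM in KO libraries (log2 fold change -0.10, 95% interval -0.36 to 0.16). Sema5b ranged from 68.1 to 81.7 CPM in WT and from 67.9 to 77.4 CPM in KO libraries (log2 fold change -0.05). The class 6 members, ligands and receptors for class A plexins, were spread around 0: Sema6a at 0.07, Sema6b at 0.03, Sema6c at 0.00 and Sema6d at -0.06. Sema6a, a ligand of Plxna2 and Plxna4, was at 43.5 CPM in WT replicate 1 and between 49.97 and 57.0 CPM in the other 7 libraries. Sema6b was lowest in WT replicate 3, at 60.1 CPM, and highest in WT replicate 2, at 83.6 CPM, so WT libraries bounded the KO range of 65.1 to 82.2 CPM. Sema6c had a mean of 122 ± 9.14 CPM in WT and 121 ± 10.5 CPM in KO libraries (SD, n = 4). Without WT replicate 1 the log2 fold change of Sema6d was -0.13 (95% interval -0.27 to -0.00101, unadjusted p = 0.0486, adjusted p = 0.811 from edgeR's test).

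Sema7a, a GPI-anchored semaphorin that promotes axon growth through integrins and also binds Plxnc1, had the highest log2 fold change of the membrane ligands. It had 86.1, 83.4, 73.4 and 81.3 CPM in WT and 88.4, 88.4, 97.4 and 78.2 CPM in KO libraries. KO replicates 1 to 3 were above all WT libraries, whereas KO replicate 4 was below 3 of them. The log2 fold change was 0.12 (95% interval -0.04 to 0.29, unadjusted p = 0.134 from edgeR's test). The receptor Plxnc1 ranged from 73.8 to 98.5 CPM in WT and from 86.8 to 99.8 CPM in KO libraries (log2 fold change 0.07).

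The neuropilins, the ligand-binding receptors of the secreted semaphorins, held the member with the smallest unadjusted p. Nrp1, which binds Sema3a and Sema3c and is also a co-receptor for VEGF-A, lies at chr8:130882973-131029362. It had 138, 162, 154 and 159.7 CPM in WT replicates 1 to 4 and 175, 199, 194 and 163 CPM in KO replicates 1 to 4. The groups did not overlap, but KO replicate 4 and WT replicate 2 were almost level. The means were 153 ± 11.0 and 183 ± 16.9 CPM (SD, n = 4), a fold of 1.19 and a log2 fold change of 0.25 (SE 0.075, 95% interval 0.09 to 0.41). The unadjusted p was 0.00590 and the adjusted p 0.810 in edgeR's test, and the exact two-sided permutation test gave p = 0.0286, the smallest that 70 assignments of 4 and 4 libraries allow. Without WT replicate 1 the log2 fold change was 0.20 (unadjusted p = 0.00917 from edgeR's test).

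With Xist as a covariate in edgeR's test, neither Nrp1 (unadjusted p = 0.136) nor Sema3c (unadjusted p = 0.344) stayed under 0.05. The log2 fold changes were then 0.21 and 0.12, beside 0.25 and 0.22 without the covariate. In the fit with Xist 1.68% of all genes had an unadjusted p under 0.05, beside 5.53% without it. Xist nearly follows genotype in these libraries, so that fit loses precision and cannot decide between sex and genotype. For Nrp1, WT replicate 4, which shares the Xist pattern of the KO libraries, was at 159.7 CPM and within the range of the other WT libraries. For Sema3c, WT replicate 4 was at 92.0 CPM, and WT replicates 1 to 3, which have high Xist, were at 78.5, 79.9 and 92.0 CPM.

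Cell type markers were read beside these genes. Of 8 radial glia and progenitor markers, 3 (Pax6, Hes1 and Nes) were lower in KO libraries at an unadjusted p under 0.05, beside 2.52% of all genes, and none passed adjustment. By sign 7 of the 8 were below 0 and 1 above, beside 49.2% of all genes above 0, and the median log2 fold change was -0.18. Slc1a3, the one above 0, had 155, 165, 155 and 151 CPM in WT and 165, 171, 173 and 156 CPM in KO libraries. Fabp7 had 730 CPM in WT replicate 1, 460 to 533 CPM in the other WT libraries and 532 to 553 CPM in KO libraries. The summed level of the 8 markers was 1474 to 1884 CPM in WT and 1485 to 1637 CPM in KO libraries. Pax6 had 112, 92.5, 104 and 97.8 CPM in WT and 77.2, 79.3, 85.4 and 95.5 CPM in KO libraries, so KO replicate 4 was again nearest to WT. Of the 6 meningeal markers tested, 5 were above 0 and 1 below, and none passed adjustment. At an unadjusted p under 0.05 in edgeR's test 1 was higher, beside 3.00% of all genes. Col1a2 had 2.64, 2.89, 1.82 and 2.56 CPM in WT and 3.02, 2.53, 6.56 and 3.08 CPM in KO libraries. Col1a1, Col3a1 and Ptgds were likewise highest in KO replicate 3, at 1.51, 6.74 and 2.82 CPM. Dcn and Foxc1 were not. In KO replicate 3 Dcn was at 2.66 CPM, against 2.39 to 3.57 CPM in WT libraries. Foxc1 was at 2.74 CPM there, against 2.29 to 3.85 CPM in WT libraries. KO replicate 3 was also the library highest in Sema3c. Endothelial markers are of interest because vessels express Nrp1. They summed to 161 to 165 CPM in WT and 158 to 167 CPM in KO libraries. Of these, 0 of 8 had an unadjusted p under 0.05, and none was at 0. Of 6 oligodendrocyte markers, 2 were higher in KO libraries at an unadjusted p under 0.05 in edgeR's test, beside 3.00% of all genes. None passed adjustment. By sign all 6 were above 0, beside 49.2% of all genes, with a median log2 fold change of 0.15. They summed to 76.3 to 93.2 CPM in WT and 78.5 to 98.6 CPM in KO libraries. The part of the progenitor, oligodendrocyte and meningeal markers in the values of Nrp1 and Sema3c was not tested.

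Nrp2, the receptor for Sema3f, lies on chromosome 1 at chr1:62749859-62865269, 5.21 Mb from Erbb4. It had 144, 204, 180.1 and 196 CPM in WT and 223, 202, 181 and 189 CPM in KO libraries. WT replicate 1 was the lowest and the remaining WT libraries lay within or near the KO range. The log2 fold change was 0.13 (95% interval -0.09 to 0.35, unadjusted p = 0.224 from edgeR's test), and without WT replicate 1 it was 0.04. Per kb of coding transcript the neuropilins were at 28.5 for Nrp1 and 28.2 for Nrp2, and per kb of all exons at 28.5 and 20.0 CPM. The ratio of Nrp2 to Nrp1 per kb of coding transcript was 0.920, 1.11, 1.03 and 1.08 in WT and 1.12, 0.891, 0.818 and 1.02 in KO libraries, and the ranges overlapped.

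**Figure D3:**
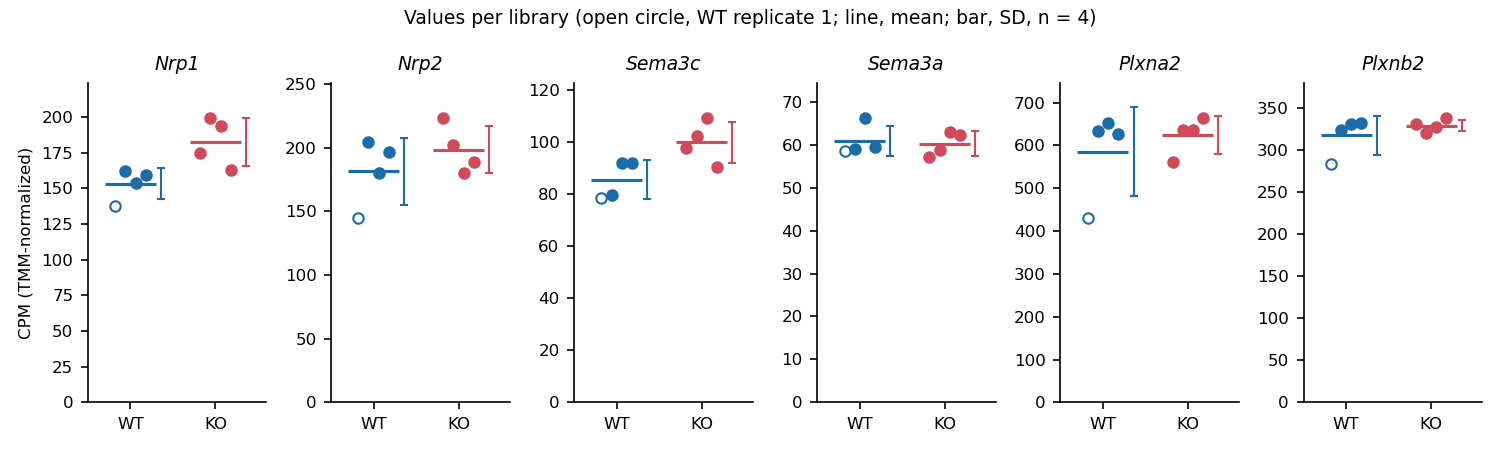
CPM in each library for Nrp1, Nrp2, Sema3c, Sema3a, Plxna2 and Plxnb2, with the mean (line) and SD (bar, n = 4) of each genotype and WT replicate 1 as an open circle. Nrp1 separates the groups narrowly, Sema3c overlaps through KO replicate 4 at 90.4 CPM, and Plxna2 and Plxnb2 are lowest in WT replicate 1, at 431 and 282 CPM.

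Plexins transmit semaphorin signals through a GTPase-activating domain inside the cell. Plxna2, a receptor for class 3 and class 6 ligands, was the most abundant member per kb of coding transcript and came after Plxnb2 per kb of all exons. It had 431, 633, 653 and 626 CPM in WT and 561, 635, 637 and 663 CPM in KO libraries. WT replicate 1 and then KO replicate 1 were the lowest, and the other 6 libraries lay between 626 and 663 CPM. The log2 fold change was 0.09 (95% interval -0.16 to 0.34), and -0.03 (95% interval -0.15 to 0.09) without that library.

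The other class A plexins followed the same course. Plxna1 was at 199 CPM in WT replicate 1 and between 280.3 and 316 CPM in the other 7 libraries. Plxna3 was at 193 CPM in WT replicate 1 and between 236 and 286 CPM elsewhere, and Plxna4, a partner of Nrp1 in Sema3a signalling, was at 229 CPM against 273 to 316 CPM. Their log2 fold changes of 0.12, 0.07 and 0.08 became -0.01, -0.03 and 0.00 without WT replicate 1. With that library left out, the 95% intervals of these 3 genes stayed within -0.19 to 0.12.

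Among class B plexins, Plxnb2, which is needed for proliferation and migration of neural progenitors, had 282, 324, 330.3 and 331 CPM in WT and 330.4, 320.2, 327 and 337 CPM in KO libraries. Outside WT replicate 1 the 7 values lay between 320.2 and 337 CPM. Its log2 fold change was 0.05 (95% interval -0.08 to 0.18), and 0.00 (95% interval -0.08 to 0.08) without WT replicate 1, the narrowest interval of the plexins in that fit. Plxnb1, the receptor for Sema4d, had 209, 262, 259.7 and 269.9 CPM in WT and 250.1, 255, 228 and 260.2 CPM in KO libraries. Its log2 fold change was -0.01 with all libraries and -0.09 without WT replicate 1 (unadjusted p = 0.0972 from edgeR's test). Plxnd1, a receptor for Sema3e that is prominent in vessels, ranged from 127 to 162 CPM in WT and from 134 to 153 CPM in KO libraries (log2 fold change 0.00).

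Plxnb3 was close to absent, with 0.606, 0.257, 0.313 and 0.342 CPM in WT and 0.650, 0.603, 0.589 and 0.254 CPM in KO libraries, from 8 to 32 reads. KO replicate 4 lay apart from the other KO libraries, and the log2 fold change of 0.51 had a 95% interval of -0.28 to 1.31. Without WT replicate 1 the log2 fold change was 0.80, and without WT replicate 2 it was 0.37. On the X chromosome Plxnb3 lies 557 kb from Plxna3, a gene at 37.0 CPM per kb. The 250 bases upstream of the start of each gene are shown because this neighbouring pair spans nearly the whole range of plexin levels. They were chosen after the levels were seen, come from RefSeq (GRCm38.p6) and are written 5′ to 3′ on the plus strand, with each CG dinucleotide, which reads the same on both strands, in capitals.
Plxna3, chrX:74328816-74329065: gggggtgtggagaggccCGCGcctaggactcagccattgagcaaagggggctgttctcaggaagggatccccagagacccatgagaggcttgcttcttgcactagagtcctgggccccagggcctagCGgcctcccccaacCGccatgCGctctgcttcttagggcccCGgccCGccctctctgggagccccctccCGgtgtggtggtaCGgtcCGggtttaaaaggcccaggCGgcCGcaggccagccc
Plxnb3, chrX:73756853-73757102: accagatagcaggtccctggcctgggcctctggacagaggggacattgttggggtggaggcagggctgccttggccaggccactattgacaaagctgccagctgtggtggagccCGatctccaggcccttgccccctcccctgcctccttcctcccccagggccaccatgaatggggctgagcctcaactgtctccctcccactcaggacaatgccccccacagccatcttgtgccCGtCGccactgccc
The Plxna3 stretch holds 12 CG dinucleotides, a number reached by 33.5% of all 32851 promoters of the same length in the table, and the Plxnb3 stretch holds 3, reached by 71.0%. Of the 31 members 26 were in that table, with 37 promoters, of which 26 were at or above the median of 6 CG dinucleotides over all promoters. The entries not matched were Sema3b, Sema3f, Sema6a, Plxna1 and Plxna4. Low level and few CG dinucleotides did not go together throughout: Sema3a, at 10.2 CPM per kb, had 2 and Sema3g, at 0.862 CPM per kb, had 8.

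WT replicate 1 was the lowest of the 8 libraries in 18 of 31 members (58.1%), against 29.5% of all genes. The members took 0.324% of its counts and 0.390% to 0.410% of the counts of the other 7 libraries. The members' transcripts are long, with a median of 5.93 kb against 3.04 kb over all genes, and each of the 31 was longer than that. In WT replicate 1 the deviation from the mean of the 8 libraries went from a median of 0.31 (log2 scale) in the decile of shortest genes to -0.32 in that of the longest. The members' median deviation there was -0.20, and it was between -0.03 and 0.07 in the other 7 libraries. The 18 members lowest in WT replicate 1 had a median transcript of 6.77 kb and the other 13 one of 4.03 kb. The cause of the trend in this library was not tested.

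**Figure D4:**
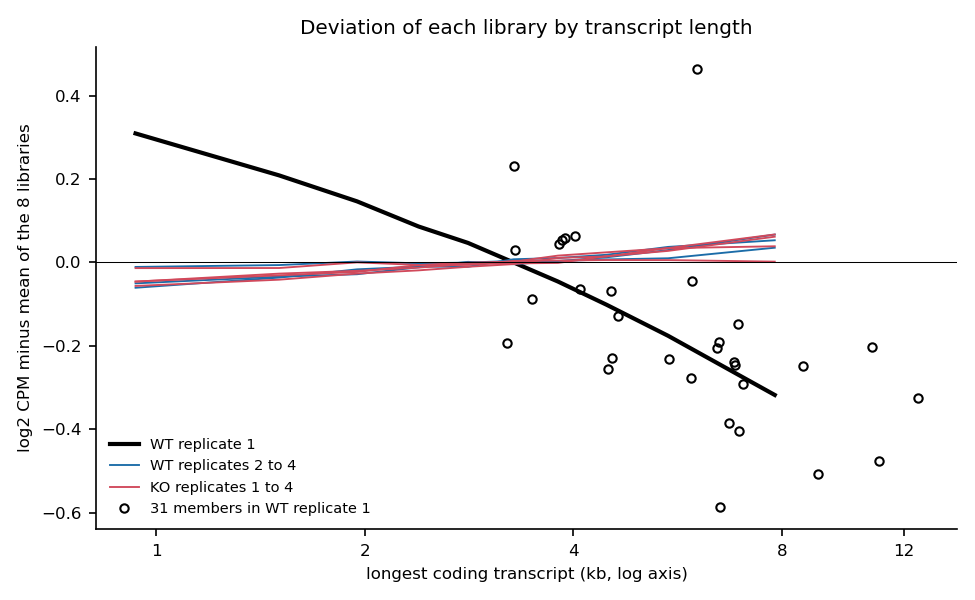
Median deviation of each library from the mean of the 8 libraries, in log2 CPM, for genes in 10 groups of transcript length (kb, log axis), with the 31 members in WT replicate 1 as open circles. The line of WT replicate 1 falls from 0.31 to -0.32 while the other 7 lines stay near 0, and most members, though not Plxnb3 at 0.46, lie along its descending end.

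After removal of the length trend from each library, the members' median log2 fold change was 0.02 and 19 of 31 were above 0. At an unadjusted p under 0.05 there were then 4 members in edgeR's test: Nrp1 and Sema3c above 0, and Sema5a and Sema6d below it. In that fit 3.89% of all genes were above 0 and 3.18% below 0 at the same threshold. None of the members passed adjustment (smallest adjusted p = 0.564 from edgeR's test). Nrp1 was at 0.20 and Sema3c at 0.18 in that fit.

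The genes that act with or below these receptors did not pass adjustment either. Of 54 such genes 53 were tested, and 0 had an adjusted p under 0.05 in edgeR's test. The exception, Timd2, had at most 6 reads in any library. At an unadjusted p under 0.05, 2 were higher and 2 lower, beside 3.00% and 2.52% of all genes. The log2 fold change was above 0 in 37 of 53, beside 49.2% of all genes, and in 37 of 53 without WT replicate 1. That library was the lowest in 29 of the 53, beside 29.5% of all genes.

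Among 13 co-receptors and other partners at the membrane, the receptor tyrosine kinase Met, which associates with class B plexins, had 7.28, 9.37, 9.36 and 8.40 CPM in WT and 13.0, 14.1, 10.6 and 10.3 CPM in KO libraries. Every KO library lay above every WT library (log2 fold change 0.48, SE 0.13, unadjusted p = 0.00301, adjusted p = 0.810 from edgeR's test). The adhesion molecule Chl1, a partner of Nrp1 in Sema3a responses, had 344, 448, 431 and 434 CPM in WT and 457, 505, 496 and 453 CPM in KO libraries. Its groups did not overlap either (log2 fold change 0.20, SE 0.081, unadjusted p = 0.0272, adjusted p = 0.810 from edgeR's test). Every KO library lay above every WT library in 2 of the 53 partners, beside 1.86% of all genes. Without WT replicate 1 the log2 fold change of Chl1 was 0.13. Met was at 0.41 without that library. L1cam, a further adhesion partner of Nrp1, had a log2 fold change of 0.14 with all libraries and 0.04 without WT replicate 1.

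Of 17 small GTPases and their regulators, 2 were lower at an unadjusted p under 0.05. Rnd2, a small GTPase that binds plexins and acts in neuron migration, had 168, 116, 128 and 137 CPM in WT and 99.8, 90.6, 114 and 131 CPM in KO libraries, and the groups overlapped (log2 fold change -0.34, SE 0.13, unadjusted p = 0.0205 from edgeR's test). Gipc1, an adaptor that binds neuropilin tails, had 93.6, 82.8, 77.6 and 81.6 CPM in WT and 77.9, 72.0, 72.8 and 79.4 CPM in KO libraries (log2 fold change -0.15, SE 0.068, unadjusted p = 0.0477 from edgeR's test). Both were highest in WT replicate 1. Without that library the log2 fold changes were -0.23 for Rnd2 and -0.09 for Gipc1. The unadjusted p values were then 0.0561 and 0.0916 in edgeR's test.

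Of 10 genes of the collapsin response mediator (CRMP) and MICAL families, which carry the signal to microtubules and actin, none had an unadjusted p under 0.05 in edgeR's test. Dpysl5 had 1037, 1120.0, 1078 and 1157 CPM in WT and 1246, 1220.4, 1198 and 1113 CPM in KO libraries (log2 fold change 0.12, unadjusted p = 0.0563 from edgeR's test). Its groups overlapped through KO replicate 4. Dpysl3 had 664, 918, 895 and 947 CPM in WT and 999, 1008, 949 and 944 CPM in KO libraries (log2 fold change 0.19, unadjusted p = 0.0753 from edgeR's test). WT replicate 1 was the lowest, and without that library the log2 fold change of Dpysl3 was 0.08. KO replicate 4 lay below WT replicate 4. The 13 kinases and cytoskeletal effectors, among them Cdk5, Fyn, Gsk3b and Cfl1, likewise held 0 genes at an unadjusted p under 0.05, with a median log2 fold change of 0.03.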

How the data were processed

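RNA-seq was deposited for 8 dorsal cortex libraries of E15.5 embryos, 4 labelled WT and 4 labelled KO. The authors prepared polyA-selected libraries without strand information, sequenced single-end reads of 50 nucleotides and aligned these to mm9 with HISAT, and HTSeq gave the count of each gene. The gene annotation and counting mode are not given in the sources used here. The deposited files hold raw counts, 1 whole number per gene symbol and library. Reads of a gene and of an overlapping antisense gene cannot be told apart in them, and short reads shared between similar genes may have been dropped. No pair of libraries agreed within sampling noise. A deposited DESeq2 table of the authors' fold changes and p-values was not used.

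The 31 members and the lists of partners and markers were chosen with earlier results of these data known. The quasi-likelihood F test of edgeR 4.0.16 (R 4.3.3) was run on TMM-normalized counts, with Benjamini-Hochberg adjustment across the 14696 genes that filterByExpr kept (count of at least 10, total of at least 15) and a threshold of 0.05. CPM uses TMM library sizes, with factors from 0.994 to 1.01, and log2 values for deviations have a prior count of 2. Standard errors and 95% intervals come from the same fit. Single values were compared with the exact two-sided permutation test. The common biological coefficient of variation was 10.7%. With depths of 28205703 to 48871480 counts, counting error matters for genes with few reads, such as Plxnb3.

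Transcript lengths and positions came from GENCODE annotation of mm9 and were found for 98.0% of tested genes. Upstream sequences came from RefSeq on GRCm38.p6, and coordinates of the builds were not converted. Values per library are given for members at an unadjusted p under 0.05, with groups that do not overlap, or highest or lowest per kb in their role, and for the 6 partners with the smallest p. Other members and genes with such values were picked after they were seen. The alternatives were DESeq2 1.42.0, relative log expression normalization, no filter, the replicate number as a block, the length trend removed, Xist as a covariate and each library left out, and exon-union lengths were added after seeing the data. The steps were tested on simulated data. Some marker genes are not reported here. Figures were drawn with matplotlib 3.10.9.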

Additional observations from a re-analysis of the deposited data

Results flagged for a closer look

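Over 62 groups of 4 values (31 genes in 2 genotypes), 6 held a library far from the other 3 by Dixon's criterion, where chance gives about 1 group in 20. WT replicate 1 was the lowest in 4 plexins: Plxna2 at 431 CPM against 626 to 653 CPM in the other WT libraries, Plxna4 at 229 against 291 to 303 CPM, Plxnb1 at 209 against 259.7 to 269.9 CPM, and Plxnb2 at 282 against 324 to 331 CPM. Sema3a was highest in WT replicate 3, at 66.1 CPM against 58.6 to 59.5 CPM. Plxnb3 was lowest in KO replicate 4, at 0.254 CPM against 0.589 to 0.650 CPM, and rests on few reads.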

How the results depend on the processing

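No member and no partner passed the adjusted threshold under any of the 14 alternatives, and the smallest adjusted p of a member was 0.278 (Nrp1, without KO replicate 4, edgeR). The count over all genes was 23 with DESeq2, 1 with relative log expression, 2 with the length trend removed, 1 with Xist as a covariate and 1 to 13 with each library left out, beside 4 in the reported fit. With the replicate block it was 1, members at an unadjusted p under 0.05 stayed Sema3c and Nrp1 (6.97% of all genes) and the smallest adjusted p of a member was 0.613, and the shared numbers did not pair the libraries (correlations of same-numbered libraries 0.08, 0.13, 0.05 and 0.02, each best with its own number in 2 of 4). Members at an unadjusted p under 0.05 numbered 4 with the length trend removed (7.08% of all genes), 0 with Xist (1.68%) and 2 to 3 with each library left out (2.90% to 9.40%), beside 2 (5.53%) in the reported fit. Those whose groups do not overlap numbered 1 to 3 with each library left out (4.54% to 9.97% of all genes, beside 3.34% with all libraries): Plxnb1 joined Nrp1 without WT replicate 1, where renormalization of the remaining libraries put KO replicate 4 at 260.2 CPM just below WT replicate 3 at 260.3 CPM (6.03%), Sema3d without KO replicate 3 (4.90%), and Sema3c and Sema7a without KO replicate 4 (9.97%). Leaving libraries out gave members' medians from -0.00110 to 0.12.

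The sign of 14 members held under all 14 alternatives, and 17 changed it in at least 1. With Xist as a covariate the log2 fold change was -0.0576 for Plxna1, -0.0420 for Plxna3, -0.000885 for Plxnb2, -0.191 for Plxnd1, 0.0243 for Sema3a, -0.0887 for Sema3f, -0.0325 for Sema6b and -0.0125 for Sema6c. With the length trend removed it was -0.00427 for Plxna2, -0.0362 for Plxna4, -0.00765 for Plxnb2, -0.0620 for Plxnd1 and -0.0186 for Sema6c. Sema6c was at -0.000703 without the filter and at -0.00136 with the replicate block. When libraries were omitted in turn, log2 fold changes ran from -0.00854 to 0.192 for Plxna1, from -0.0308 to 0.147 for Plxna2, from -0.0320 to 0.142 for Plxna3, from -0.00198 to 0.122 for Plxna4, from -0.0872 to 0.0280 for Plxnb1, from -0.00110 to 0.132 for Plxnc1, from -0.0425 to 0.0791 for Plxnd1, from -0.0360 to 0.0291 for Sema3a, from -0.147 to 0.272 for Sema3b, from -0.0185 to 0.137 for Sema3e, from -0.0391 to 0.0693 for Sema3f, from -0.0440 to 0.142 for Sema4a, from -0.0607 to 0.000515 for Sema4c, from -0.0129 to 0.140 for Sema4g, from -0.0630 to 0.0926 for Sema6b and from -0.0507 to 0.0520 for Sema6c. The causes were not tested. With exon-union lengths 14 of 31 levels per kb moved by more than their SD, and no gene moved by more than 4 ranks.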

Other observations

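The ventral factor Nkx2-1 differed between libraries of the same genotype, at 7.63 to 24.6 CPM in WT and 9.37 to 27.0 CPM in KO libraries.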
